A study of Rattus norvegicus with 24 samples.

Results

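The comparison described here is between livers of rats given 0.3 µg/kg TCDD and livers of rats given vehicle, with 3 RNA sequencing libraries in each group. These 6 libraries were chosen by their dose and treatment labels from the 24 of the series. All animals were female Sprague-Dawley rats, an outbred stock, with a labelled age of 57 days. The treated rats received 0.3 µg/kg TCDD in sesame oil by gavage at intervals of 4 days, and the control rats received sesame oil alone on the same schedule. Livers were taken on day 28. The other 18 libraries came from rats given 0.01, 0.03, 0.1, 1, 3 or 10 µg/kg, with 3 in each group, and the series describes the 3 as biological replicates.

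TCDD is a chlorinated dioxin that binds the aryl hydrocarbon receptor, a transcription factor held in the cytoplasm until a ligand reaches it. The bound receptor moves to the nucleus, pairs with its partner ARNT and switches on genes that carry its recognition sequence, among them several cytochrome P450 and conjugating enzymes of the hepatocyte. In rodent liver, dioxin exposure is further known for effects on lipid, bile acid and retinoid handling and on the hormonal control of liver genes.

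The deposited tables hold raw counts, 1 per Ensembl gene ID, without normalisation. Gene counts ranged from 11816273 to 13522274 per library among the 6 libraries, and 14507 to 14745 IDs held at least 1 count. Levels are given in CPM, the count scaled by the effective library size but not by gene length, so they compare libraries for 1 ID and not IDs with each other. In vehicle libraries, 3 counts equal about 0.242 CPM. None of the IDs could be identified with certainty: the sources used here paired 0 of the 26404 IDs with a gene symbol. IDs are therefore given without names or roles, the largest 2 rises and the largest 2 falls are described in full, among called IDs whose higher group averaged at least 5 CPM and whose groups did not overlap, and the identity of the tissue and the known dioxin targets could not be checked by symbol. In whole liver, fewer cells of a type and less RNA per cell cannot be told apart.

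Before the results, the libraries themselves need describing, because 1 treated library resembled vehicle libraries. Across the 12496 IDs tested, log2 CPM of treated replicate 3 correlated at 0.977 with vehicle replicate 3 and at 0.973 with vehicle replicate 2, against 0.965 with treated replicate 1 and 0.971 with treated replicate 2. Treated replicates 1 and 2 correlated at 0.979 with each other. In the vehicle group, replicate 1 correlated at 0.969 with vehicle replicate 2 and at 0.961 with vehicle replicate 3, against 0.963 with each of treated replicates 1 and 2. Vehicle replicates 2 and 3 correlated at 0.977. These values describe 6 libraries that share most of their expressed genes, and no test was made of them. The labels name no sequencing batch, so a batch cannot be told apart from the differences between single rats.

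At 0.3 µg/kg TCDD, 240 IDs rose against vehicle, which is 1.92% of the IDs tested. Falls were fewer, with 18 IDs or 0.144%, which brings the calls to 258 in all (2.06%). Calls rest on an adjusted p below 0.05 from edgeR's quasi-likelihood test with Benjamini-Hochberg adjustment over all 12496 IDs. The rises had a median log2 fold change of 1.00, with 122 of at least 2-fold, 26 of at least 4-fold and 12 of at least 8-fold. The falls were smaller, with a median log2 fold change of -0.68 and 5 of at least 2-fold. The 2 falls of at least 4-fold were not eligible for description by ID, 1 because its groups overlapped and 1 because its vehicle mean lay below 5 CPM. The median log2 fold change of all IDs tested was -0.03. Without adjustment, 1217 IDs were higher (9.74%) and 657 were lower (5.26%) at p below 0.05.

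The lowest of the 3 treated libraries lay above the highest of the 3 vehicle libraries for 238 of the 240 rises, and such a gap was found for 10.7% of all IDs tested. For the falls, 17 of 18 showed the reverse gap, against 7.63% of all IDs. The IDs were called on these same libraries, so such gaps follow in part from the call and give no separate evidence. Most large fitted changes were not called. Of 691 IDs with a fitted change of at least 2-fold in either direction, 127 passed the test and 564 did not.

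**Figure D1:**
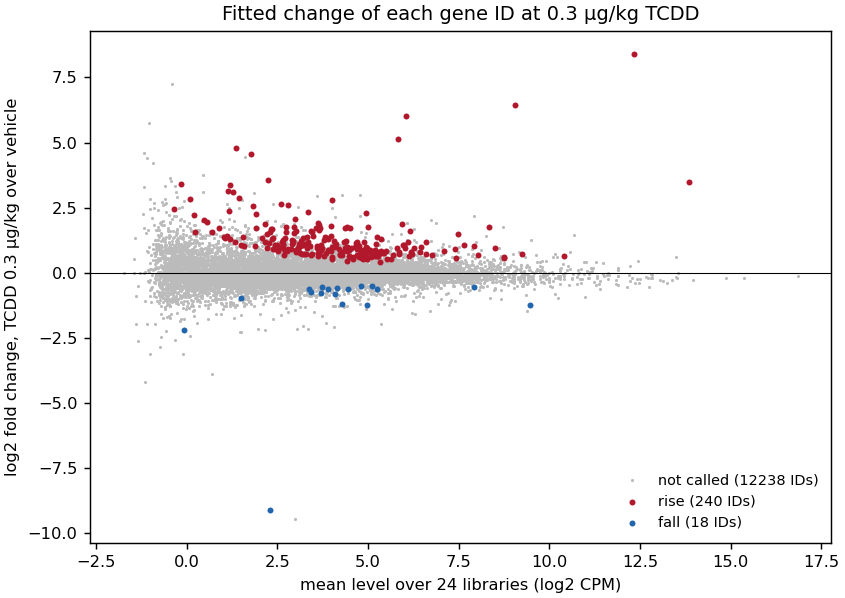
Log2 fold change of each of the 12496 gene IDs at 0.3 µg/kg TCDD over vehicle (vertical axis) against its mean level over all 24 libraries in log2 CPM (horizontal axis), with the 240 rises in red, the 18 falls in blue and all other IDs in grey. Red points spread up to 8.38, while all but 2 of the blue points lie between -0.50 and -1.24.

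ENSRNOG00000019500 showed the largest rise. It stood at 5053, 5949 and 3008 CPM in the 3 treated libraries, against 19.1, 11.4 and 11.5 CPM in the 3 vehicle libraries. Treated replicate 3 was the lowest of its group and still far above every vehicle library, so the groups did not overlap. The means were 4669.7 ± 1507 CPM at 0.3 µg/kg and 14.0 ± 4.39 CPM in vehicle (SD, n = 3 each), a log2 fold change of 8.38 with a standard error of 0.59 (95% interval 7.15 to 9.61; edgeR adjusted p = 2.82e-08).

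ENSRNOG00000047433 showed the next largest rise. Its treated libraries held 1725, 2156 and 1382 counts, or 142, 183 and 109 CPM, against 23, 21 and 18 counts, or 1.77, 1.68 and 1.52 CPM, in the vehicle libraries. All 3 treated libraries were high and the vehicle libraries were close together, with treated replicate 3 again the lowest of its group. The means were 145 ± 37.0 CPM at 0.3 µg/kg and 1.66 ± 0.127 CPM in vehicle (SD, n = 3 each), a log2 fold change of 6.43 with a standard error of 0.44 (95% interval 5.51 to 7.36; edgeR adjusted p = 2.82e-08). Both rises passed the test under all 12 alternative settings, with log2 fold changes of 8.17 to 8.67 for ENSRNOG00000019500 and 6.23 to 6.60 for ENSRNOG00000047433.

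ENSRNOG00000016690 showed the largest fall among the IDs eligible to be named. It stood at 29.9, 15.0 and 18.7 CPM in the treated libraries, against 56.0, 45.8 and 48.1 CPM in the vehicle libraries. The treated library nearest to vehicle was replicate 1, and the groups did not overlap. The means were 21.2 ± 7.73 CPM at 0.3 µg/kg and 50.0 ± 5.36 CPM in vehicle (SD, n = 3 each), a log2 fold change of -1.24 with a standard error of 0.31 (95% interval -1.87 to -0.60; edgeR adjusted p = 0.0392). This call was lost without any 1 of the 6 libraries and when only these 2 groups were fitted, with adjusted p from 0.0517 to 0.212 in those 7 settings. Over all 12 alternatives its log2 fold change ran from -1.57 to -1.04.

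ENSRNOG00000007886 held 508, 303 and 316 CPM in the treated libraries, against 996, 1014 and 618 CPM in the vehicle libraries. Vehicle replicate 3 lay below the other vehicle libraries but above all 3 treated ones. The means were 376 ± 115 CPM at 0.3 µg/kg and 876 ± 224 CPM in vehicle (SD, n = 3 each), a log2 fold change of -1.22 with a standard error of 0.22 (95% interval -1.69 to -0.75; edgeR adjusted p = 0.00845). The call was lost without vehicle replicate 1, without vehicle replicate 2, without treated replicate 2 and when only the 2 groups were fitted, where the adjusted p was 0.0526, 0.0710, 0.0828 and 0.125. Over all 12 alternatives its log2 fold change ran from -1.50 to -1.09.

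**Figure D2:**
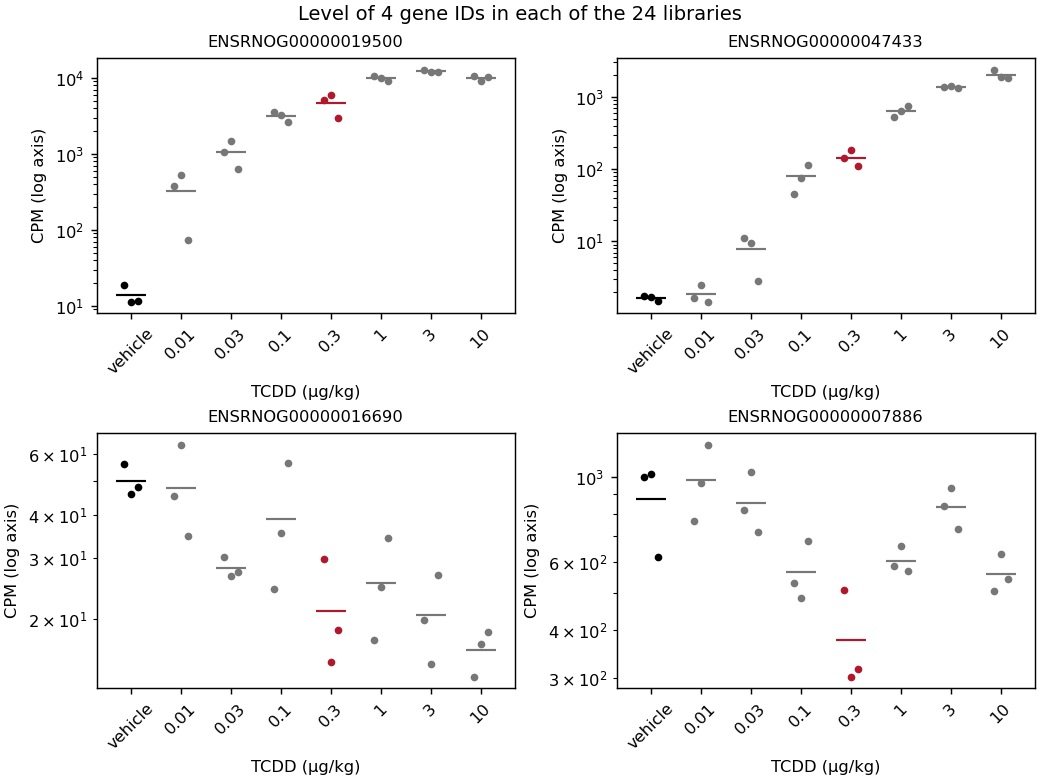
Level in CPM (log axis) of the 4 described IDs in each of the 24 libraries, from vehicle (black) through the doses of TCDD in µg/kg, with 0.3 µg/kg in red and a line at each group mean. The upper IDs climb over several doses, while ENSRNOG00000007886 is lowest at 0.3 µg/kg and stands at 836 CPM at 3 µg/kg, against 876 CPM in vehicle.

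The share of gene counts taken by the 240 rises shows how uneven the gain was. It was 2.78%, 3.15% and 2.35% in the treated libraries, against 0.667%, 0.590% and 0.716% in the vehicle libraries. Of the gain between the group means, 75.9% belonged to 2 IDs, ENSRNOG00000019500 and 1 other. Together these 2 IDs took 1.70% of gene counts at 0.3 µg/kg and 0.108% in vehicle. ENSRNOG00000019500 averaged 4669.7 CPM at 0.3 µg/kg and 14.0 CPM in vehicle, so the other ID held the larger part of their gain. The remaining 238 IDs took 1.06% ± 0.108 of gene counts at 0.3 µg/kg and 0.550% ± 0.0699 in vehicle (SD, n = 3 each). The 18 falls took 0.0850% ± 0.0107 at 0.3 µg/kg and 0.156% ± 0.0212 in vehicle (SD, n = 3 each). ENSRNOG00000007886 was the fall with the highest vehicle level, and without it the other 17 took 0.0468% ± 0.00399 at 0.3 µg/kg and 0.0717% ± 0.00131 in vehicle. These shares describe IDs chosen on the same libraries and were not tested.

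Rises were found at every level of the vehicle libraries, but their fitted size differed with the level. Of IDs below 1 CPM in vehicle, 24 of 1314 rose, with a median log2 fold change of 2.59. Between 1 and 10 CPM, 111 of 4805 rose (median 1.12), between 10 and 100 CPM 93 of 5339 (median 0.80), and above 100 CPM 12 of 1038 (median 0.78). The median standard error of all IDs tested was 0.58 below 1 CPM, 0.30 between 1 and 10 CPM, 0.17 between 10 and 100 CPM and 0.18 above 100 CPM. Their median absolute log2 fold change was 0.54, 0.27, 0.18 and 0.18 in the same order. Larger fitted changes at low levels were thus not particular to the rises. Of the 12 rises of at least 8-fold, 5 had a vehicle mean below 0.242 CPM, and the fitted size of these rests on few vehicle counts. None of the 240 rises was without a count in all 3 vehicle libraries, and none of the falls was without a count in all 3 treated libraries.

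Within the rises, the libraries of a group did not contribute evenly. Treated replicate 3 was the lowest of its group for 183 of the 240 rises (76.2%), compared with 38.6% of all IDs tested. Vehicle replicate 3 was the highest of its group for 168 of the 240 rises (70.0%), compared with 34.9% of all IDs. Over the 240 rises, the median log2 difference from the vehicle mean was 1.12 in treated replicate 1, 1.11 in replicate 2 and 0.76 in replicate 3. For the 18 falls, these medians were -0.74, -0.74 and -0.56.

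**Figure D3:**
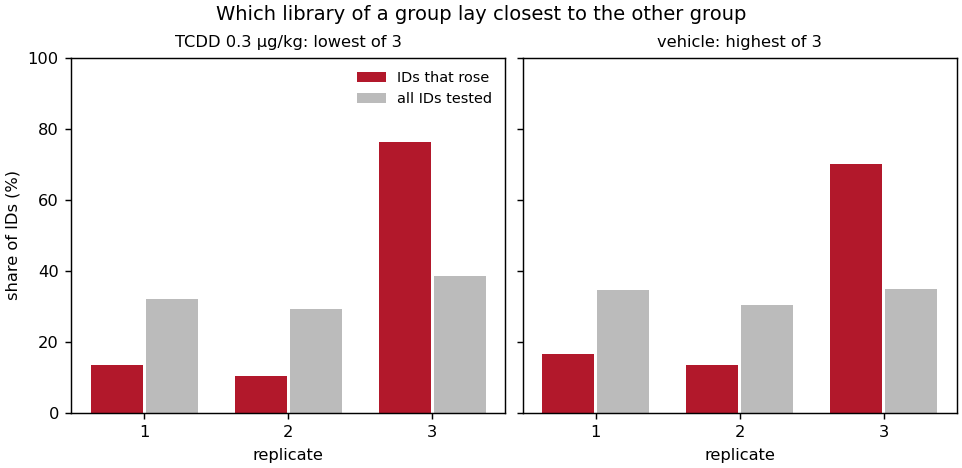
Share of IDs (percent) for which each replicate was the lowest of the 3 treated libraries (left) or the highest of the 3 vehicle libraries (right), for the 240 rises in red and all 12496 IDs in grey. Replicate 3 stands out in each group, at 76.2% and 70.0% of the rises.

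The number of calls depended on single libraries. There were 465 calls without treated replicate 3 and 28 and 33 without treated replicates 1 and 2. Without vehicle replicates 1, 2 and 3 there were 24, 15 and 315. A fit of the 2 groups alone estimated the spread from their 6 libraries and tested 11563 IDs. It called 7 IDs, all of them rises, while DESeq2 called 439 rises and 85 falls. No ID called here changed the sign of its fitted change in any of the 12 alternatives. The groups of nearly all called IDs did not overlap, so leaving out a library could hardly reverse a sign. Of the 258 calls, 11 rises and no fall passed the test in all 6 fits that left out a library, and 141 IDs passed it in only 2 of those fits. The 5 rises that passed under all 12 alternatives had fitted log2 fold changes of 3.48 or more, and ENSRNOG00000019500 and ENSRNOG00000047433 were among them. The other 3 are not given by ID, since IDs without a symbol were limited to 2 in each direction.

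**Figure D4:**
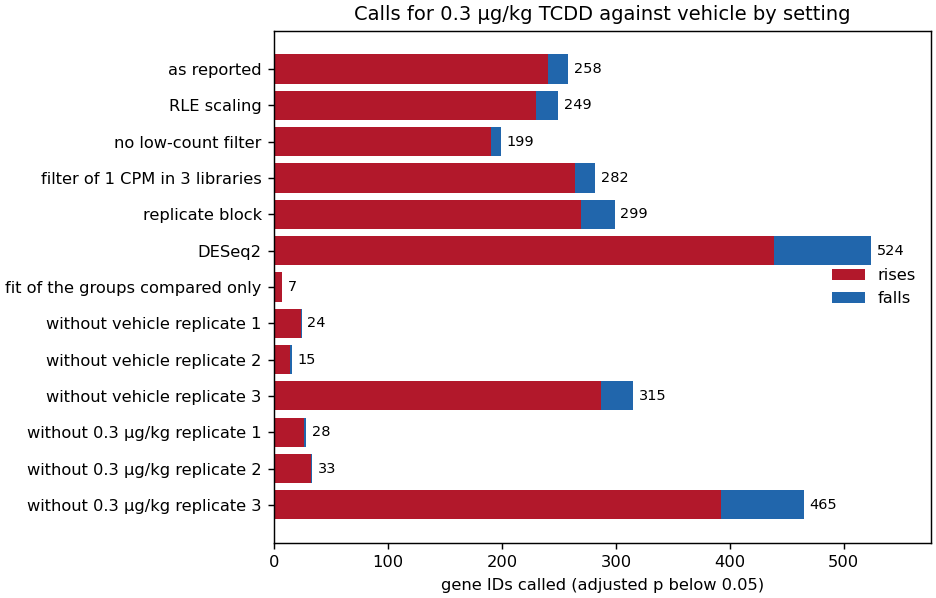
Number of IDs called for 0.3 µg/kg TCDD against vehicle (adjusted p below 0.05; rises in red, falls in blue) as reported and under each of the 12 alternatives. Totals run from 7 in a fit of the 2 groups alone to 524 with DESeq2, and from 15 to 465 when 1 library was left out.

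The libraries at the other doses give a view of these IDs that does not use the 6 libraries compared. The mean of 1, 3 and 10 µg/kg (9 libraries) was set against the mean of 0.01 and 0.03 µg/kg (6 libraries) in the same fit. Alignments that were not unique made up 29.3% to 35.0% of all values at 10 µg/kg. In all other libraries they made up 21.0% to 25.8%. Whether this affects the comparison was not tested. Of the 240 rises, 225 had a higher fitted mean at the upper doses (93.8%), against 49.0% of all IDs tested. The difference passed the test with the same direction for 152 of the 240 (63.3%), where 11.9% of all IDs were called higher, and with the opposite direction for 5, where 11.3% of all IDs were called lower. The median log2 difference was 0.51 for the rises and -0.01 for all IDs. Both comparisons used the same estimate of each ID's spread, so an ID that varied little was more readily called in each. The share with a given sign uses no call at the other doses. IDs that shift together within a library do not give independent signs.

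Calls in these other libraries are given here by the size of the rise. Of all IDs tested, 11.9% were called higher at the upper doses and 11.3% lower. Of the 12 rises of at least 8-fold at 0.3 µg/kg, 11 were called higher at the upper doses and 1 lower. Of the 110 between 2-fold and 8-fold, 85 were called higher and 0 lower. Of the 118 under 2-fold, 56 were called higher and 4 lower. The difference between these shares was not tested. Of the 18 falls, 15 had a lower fitted mean at the upper doses (83.3%, against 51.0% of all IDs), 9 were called lower and 1 was called higher. The 4 IDs described above were called in the direction they had at 0.3 µg/kg. The log2 differences were 4.18 for ENSRNOG00000019500, 8.29 for ENSRNOG00000047433, -0.84 for ENSRNOG00000016690 and -0.48 for ENSRNOG00000007886, with edgeR adjusted p of 1.95e-08, 4.69e-13, 0.00329 and 0.0183. The pooled upper doses hide unlike levels of ENSRNOG00000007886. Against vehicle its log2 fold change was -0.53 at 1 µg/kg, -0.07 at 3 and -0.65 at 10 µg/kg (edgeR adjusted p = 0.214, 0.884 and 0.0344).

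Along the dose series, the median position of the 240 rises was computed in each library as the log2 difference from each ID's mean at 0.01 and 0.03 µg/kg. At 0.3 µg/kg it was 0.65, 0.68 and 0.32 in replicates 1, 2 and 3, against -0.54, -0.52 and -0.23 in the vehicle libraries. Treated replicate 3 thus lay below all 3 libraries at 0.1 µg/kg, which held 0.39, 0.42 and 0.37. At 1 µg/kg the values were 0.04, 0.47 and 0.48, with 1 library near the low doses. They were 0.51, 0.65 and 0.60 at 3 µg/kg and 0.69, 0.61 and 0.65 at 10 µg/kg. The IDs were chosen on the vehicle and 0.3 µg/kg libraries, so the distance between those groups is a description.

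**Figure D5:**
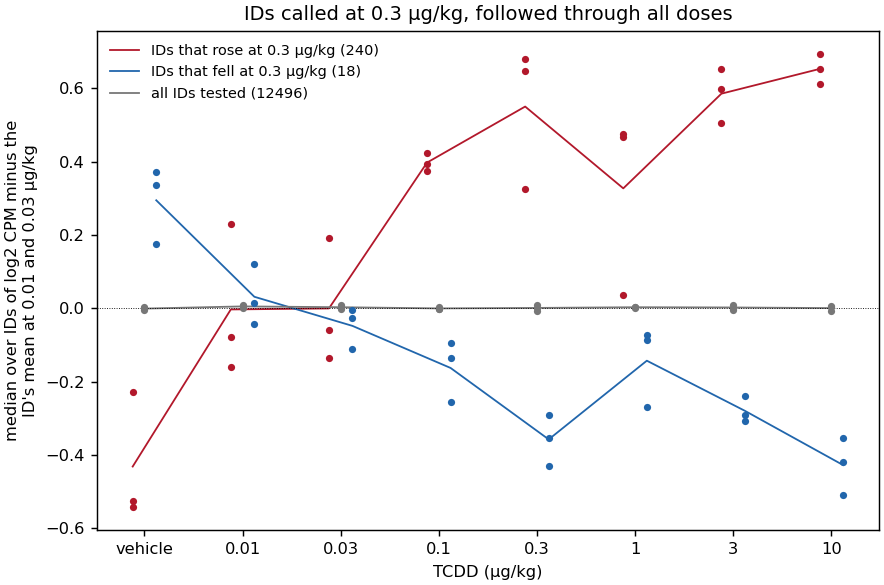
Median over the 240 rises (red), the 18 falls (blue) and all 12496 IDs (grey) of the log2 CPM difference from each ID's own mean at 0.01 and 0.03 µg/kg (vertical axis), in each library by dose of TCDD in µg/kg (horizontal axis), with lines through the group means. The libraries at 0.1 µg/kg put the rises at 0.37 to 0.42, those at 10 µg/kg put them at 0.61 to 0.69, and all IDs together stay near 0.

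Against vehicle, each dose gave its own median over the IDs called at 0.3 µg/kg, and these comparisons share the vehicle libraries. The median log2 fold change of the 240 rises was 0.46 at 0.01 µg/kg, 0.45 at 0.03, 0.85 at 0.1, 1.00 at 0.3, 0.81 at 1, 1.08 at 3 and 1.12 at 10 µg/kg. For the 18 falls it was -0.27, -0.36, -0.39, -0.68, -0.54, -0.66 and -0.81 at the same doses. The medians over all IDs tested lay between -0.03 and 0.01. The IDs were chosen partly for low or high values in the vehicle libraries, so medians away from 0 follow in part from that choice at every dose. ENSRNOG00000047433 averaged 1.87 ± 0.549 CPM at 0.01 µg/kg, 7.81 ± 4.40 at 0.03, 79.1 ± 35.1 at 0.1, 145 ± 37.0 at 0.3, 636 ± 106 at 1, 1358 ± 49.6 at 3 and 2015 ± 310.5 at 10 µg/kg (SD, n = 3 each). ENSRNOG00000019500 averaged 323 ± 229 CPM at 0.01 µg/kg, 1067 ± 424 at 0.03, 3126 ± 481 at 0.1, 4669.7 ± 1507 at 0.3, 9952 ± 795 at 1, 12299 ± 472 at 3 and 9932 ± 734 at 10 µg/kg. It passed the test against vehicle at 0.01 µg/kg already (log2 fold change 4.53, edgeR adjusted p = 0.000155). ENSRNOG00000016690 averaged 47.9 ± 14.6 CPM at 0.01 µg/kg, 28.0 ± 1.95 at 0.03, 38.8 ± 16.1 at 0.1, 21.2 ± 7.73 at 0.3, 25.5 ± 8.46 at 1, 20.5 ± 6.02 at 3 and 16.3 ± 2.39 at 10 µg/kg, with a lower mean at 0.03 than at 0.1 µg/kg.

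To see where 0.3 µg/kg differed from its neighbours in dose, it was tested directly against 0.1 µg/kg. No ID passed edgeR's test with adjustment. Unadjusted, 501 IDs had a p below 0.05 (4.01% of those tested), and DESeq2 called 1 ID. Without 0.1 µg/kg replicate 3, edgeR called 1 ID. The smallest adjusted p was 0.288. In the edgeR fit of all 24 libraries, a call against vehicle at 0.3 µg/kg was therefore in no case shown to exceed the level at 0.1 µg/kg. Whether the ID called in either alternative was among the calls against vehicle was not checked. For ENSRNOG00000019500 the log2 difference between 0.3 and 0.1 µg/kg was 0.58 (95% interval -0.31 to 1.47; edgeR adjusted p = 0.9996), which does not exclude a change of 2-fold. For ENSRNOG00000047433 it was 0.87 (95% interval 0.17 to 1.57; edgeR adjusted p = 0.9996). The interval of a single ID takes no account of the number of IDs tested.

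The next higher dose, 1 µg/kg, was set against 0.3 µg/kg in the same way. Here 7 IDs were higher at 1 µg/kg (0.056% of those tested) and 0 were lower, with 721 IDs (5.77%) at an unadjusted p below 0.05. The 7 log2 differences ran from 1.78 to 4.54. Of these IDs, 4 were among the 240 that rose at 0.3 µg/kg against vehicle, and 4 had a vehicle mean below 1 CPM. ENSRNOG00000047433 was 1 of them, at 531 to 743 CPM in the libraries at 1 µg/kg against 109 to 183 CPM at 0.3 µg/kg (log2 difference 2.14, standard error 0.34; edgeR adjusted p = 0.0105). ENSRNOG00000019500 differed by 1.09 (95% interval 0.20 to 1.99) and did not pass with adjustment (edgeR adjusted p = 0.762). The count of 7 was 4 without 0.3 µg/kg replicate 3 and without 1 µg/kg replicate 3, and 13 without 1 µg/kg replicate 1. DESeq2 called 32 IDs. Of the 240 rises, 47 had a higher mean at 1 than at 0.3 µg/kg. Their median log2 difference between 1 and 0.3 µg/kg was -0.25, and that of the 18 falls 0.18. These IDs were chosen on the 0.3 µg/kg libraries, so medians of these signs follow in part from that choice.

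ENSRNOG00000007886 had another course over dose. Its means were 876 ± 224 CPM in vehicle, 981 ± 221 at 0.01 µg/kg, 856 ± 159.9 at 0.03, 565 ± 103 at 0.1, 376 ± 115 at 0.3, 606 ± 49.3 at 1, 836 ± 100.5 at 3 and 559.7 ± 64.4 at 10 µg/kg (SD, n = 3 each). The 3 libraries at 0.3 µg/kg, at 303 to 508 CPM, lay below all 3 at 1 µg/kg, at 569 to 662 CPM. The share of all IDs with such a gap was not counted. This ID was chosen for its fall at 0.3 µg/kg, so a low point at that dose follows in part from that choice. The log2 difference was -0.59 between 0.3 and 0.1 µg/kg (edgeR unadjusted p = 0.0155, adjusted p = 0.9996) and 0.69 between 1 and 0.3 µg/kg (edgeR unadjusted p = 0.00567, adjusted p = 0.610). Neither difference passed the test with adjustment, so the low point at 0.3 µg/kg was not shown to differ from its neighbours.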

How the data were processed

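Livers of 24 rats were measured by RNA sequencing, and the 6 libraries of 0.3 µg/kg TCDD and vehicle are the subject here. The deposited values are whole-number counts per Ensembl gene ID, 1 table per library with 26404 IDs, not normalised. Per the labels' protocols, TRIzol was used to isolate total RNA and an Illumina TruSeq kit to make the libraries. Per the submitters' processing notes, TopHat 1.4.1, HTSeq 0.6.1, FastQC 0.11.2, SAMtools 0.1.2, cutadapt 1.4.1 and DESeq were used. Genome build, annotation release and strand setting are not given in the sources used here, so an ID that overlaps another, has an antisense partner or has a near-identical copy has an uncertain count. The 5 HTSeq summary rows name no gene and were left out of library sizes and tests. In the 6 libraries these rows made up 38.5% to 41.1% of all values, with alignments that were not unique at 23.4% to 24.9%.

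The analysis used edgeR 4.0.16 under R 4.3.3. IDs were kept by filterByExpr with the 8 groups (12496 of 18198 with a count), library sizes were scaled by TMM (factors 0.922 to 1.06 in the 6 libraries), and all 24 libraries entered a quasi-likelihood model with a mean per group and 16 residual degrees of freedom. Contrasts were tested with glmQLFTest, with Benjamini-Hochberg adjustment over all IDs. Standard errors came from the log2 fold change over the root of its F statistic. CPM used TMM-scaled library sizes, and log2 CPM a prior count of 2. Replicate libraries differed by more than sampling noise (chi-square per degree of freedom 18.7 to 53.1 in the 2 groups). The p-values weigh a difference in group means against the spread between replicate libraries, estimated over the 8 groups together. In that spread, differences between rats cannot be told apart from a batch.

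The RefSeq gene table used here (47357 rows) held 0 Ensembl IDs. Gene lists, cell type markers and promoter sequences could therefore not be applied. IDs described in full were the largest 2 rises and the largest 2 falls by fitted log2 fold change among called IDs whose higher group averaged at least 5 CPM and whose groups did not overlap (206 rises and 15 falls were eligible). The comparison and the rules were chosen with earlier results of these data known.

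On simulated counts with 100 changes of 2-fold and 100 of 4-fold at 0.3 µg/kg among 12333 IDs, edgeR called 38 and 88 against vehicle, with 4 false among 130 calls. DESeq2 called 49 and 91, with 25 false among 165. Between 0.3 and 0.1 µg/kg edgeR called 41 and 87. The simulated counts were drawn independently for each ID and library, without shifts shared by many IDs of a library. They therefore do not measure the share of false calls in the real libraries. Alternatives were DESeq2 1.42.0, RLE scaling, no low-count filter, a minimum of 1 CPM in any 3 libraries, a block for the replicate number, a fit of the groups compared only, and leaving out each library in turn.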

Additional observations from a re-analysis of the deposited data

Results flagged for a closer look

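The effects of 1 and 0.3 µg/kg differed by a direct test for 7 IDs, all higher at 1 µg/kg. ENSRNOG00000047433 was among them, with a log2 difference of 2.14 between 1 and 0.3 µg/kg (edgeR adjusted p = 0.0105), higher in 3 of 3 libraries.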

How the results depend on the processing

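The comparison of 0.3 µg/kg with vehicle gave 258 calls here, 524 with DESeq2, 7 in a fit of the 2 groups alone and 15 to 465 when 1 library was left out. RLE scaling (249), no low-count filter (199) and at least 1 CPM in 3 libraries (282) kept the count within 1.5 times. Between 0.3 and 0.1 µg/kg the count of 0 was 1 with DESeq2 and 0 to 1 without 1 library. Between 1 and 0.3 µg/kg the count of 7 was 32 with DESeq2 and 4 to 13 without 1 library. For the upper against the lower doses the count of 2899 ranged from 2263 to 3188 without 1 library and stayed within 1.5 times in all settings tried. The cause of these shifts was not tested. Leaving out a library did not always lower the count, which was 465 without 0.3 µg/kg replicate 3 and 315 without vehicle replicate 3.

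With the replicate number as a block, 299 IDs were called for 0.3 µg/kg against vehicle, 241 of them among the 258, with 0, 9 and 3187 calls in the other comparisons. Replicate numbers were not taken as pairs: the deviations of same-numbered libraries from their group means correlated across IDs at 0.229, -0.120 and 0.279 for replicates 1, 2 and 3, and treated replicate 2 correlated best with vehicle replicate 1, at 0.220. No described ID changed sign in any setting, which follows largely from describing only IDs whose groups did not overlap.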

Other observations

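The fall with the largest fitted change at 0.3 µg/kg, a log2 fold change of -9.10 with a standard error of 2.02 (edgeR adjusted p = 0.0254), was not eligible to be named because its groups overlapped. It held 0, 1 and 0 counts in the treated libraries, against 203, 556 and 0 counts in the vehicle libraries. Vehicle replicate 3 was thus as low as the treated libraries, and the fitted change is no measure of size. The median SD of log2 CPM among the 240 rises was 0.26 at 0.3 µg/kg and 0.27 in vehicle, compared with 0.24 and 0.25 over all IDs tested.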
